A study of Homo sapiens with 6 samples.

Results

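The regions described here are the places at the ends of protein-coding genes where V5-tagged TAF2 was called on chromatin in at least 2 of 3 libraries. They were found by merging the peaks of the 3 V5 lists wherever they overlapped by 1 bp or more. A merged region was kept if it held peaks of 2 or 3 libraries and came within 1000 bp of the start or the 3′ end of a protein-coding gene on chromosomes 1 to 22 or X. Of 3783 merged regions, 1390 held peaks of at least 2 libraries and 1355 of those lay on these chromosomes. The gene-end regions numbered 249 of the 1355 (18.4%), and the other 1106 lay elsewhere. The regions were chosen by the peak calls of these 3 lists, so their number and reproducibility are a description and carry no test. Without replicate 2 the same rule gave 138 regions, without replicate 3 it gave 129, and without replicate 1 it gave 180.

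The material was HepG2-TAF2-V5, a derivative of HepG2, an established line from a human liver cancer that keeps many hepatocyte features. The 6 ChIP-seq libraries comprised 3 V5 immunoprecipitations and 3 controls, and both groups came from the same tagged cells with no other treatment named. The controls are called input in some labels and IgG in others, and no peak list of theirs was analysed here, so no background value stands beside the results. The sources used here do not say how the tag was introduced, whether the line is 1 clone or whether the libraries came from separate cultures, so the spread between libraries may be technical. Of the 1599 peaks listed for replicate 1, 187 lay in gene-end regions, as did 240 of 2557 for replicate 2, the longest list, and 243 of 1887 for replicate 3. The lists carry no read totals, so depth is unknown, and intervals below are exact binomial (Clopper-Pearson) 95% intervals that cover counting error only.

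TAF2 is a subunit of TFIID, the complex of TBP and its associated factors that recognises core promoters and seeds assembly of the RNA polymerase II machinery. Within TFIID, TAF1 and TAF2 contact DNA around and downstream of the transcription start, including the initiator, while TBP binds the TATA region upstream. Mammalian promoters differ in composition: many lie in CpG islands without a TATA box, and a smaller set, often inducible or tissue-restricted, carries one. HepG2 cells make sterols and secrete plasma proteins, and sterol synthesis genes are controlled by SREBP factors together with NF-Y and Sp1.

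The promoter sequences of 7 genes with a region at the start are printed because they show how much the promoters of such genes differed. The stretch was set by the annotated start and not by the region, so parts of it lie outside the called region. At HMGCS1 the summit, 292 bp before the start, is not in the stretch. FAM117B, C14orf93 and DHRS13 belonged to the strongest regions, HMGCS1, SREBF2 and FDPS represent the sterol genes, and MT2A is a metallothionein gene. Each run is in the direction of transcription, from 250 bases before the annotated start through the first 30 bases of the gene, and comes from RefSeq on GRCh38.p14. The positions are chr2:202634719-202634998 (plus strand) for FAM117B, chr14:23010114-23010393 (minus) for C14orf93 and chr17:28903050-28903329 (minus) for DHRS13. Those of the sterol genes are chr5:43313383-43313662 (minus) for HMGCS1, chr22:41832855-41833134 (plus) for SREBF2 and chr1:155308616-155308895 (plus) for FDPS. That of MT2A is chr16:56608334-56608613 (plus). Capitals mark matches, on either strand, to the motifs searched, such as the GC box GGGCGG, the NF-Y motif CCAAT and the TATA box TATAAA.
FAM117B: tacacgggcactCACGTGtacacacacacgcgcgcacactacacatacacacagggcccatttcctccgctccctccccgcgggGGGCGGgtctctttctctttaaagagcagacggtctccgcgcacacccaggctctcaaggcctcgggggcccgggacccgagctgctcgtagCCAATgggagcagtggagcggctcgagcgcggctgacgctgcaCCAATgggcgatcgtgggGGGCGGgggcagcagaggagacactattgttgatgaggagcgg
C14orf93: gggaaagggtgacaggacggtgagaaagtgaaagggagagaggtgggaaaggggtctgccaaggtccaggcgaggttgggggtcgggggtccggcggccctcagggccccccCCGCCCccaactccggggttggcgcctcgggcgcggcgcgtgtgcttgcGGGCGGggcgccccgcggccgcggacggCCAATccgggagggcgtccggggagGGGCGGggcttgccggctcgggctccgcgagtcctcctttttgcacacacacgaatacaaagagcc
DHRS13: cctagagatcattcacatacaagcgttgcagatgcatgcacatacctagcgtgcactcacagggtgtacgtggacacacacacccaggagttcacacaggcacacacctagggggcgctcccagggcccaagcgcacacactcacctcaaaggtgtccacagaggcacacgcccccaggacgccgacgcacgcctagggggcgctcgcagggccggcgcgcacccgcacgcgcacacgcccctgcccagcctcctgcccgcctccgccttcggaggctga
HMGCS1: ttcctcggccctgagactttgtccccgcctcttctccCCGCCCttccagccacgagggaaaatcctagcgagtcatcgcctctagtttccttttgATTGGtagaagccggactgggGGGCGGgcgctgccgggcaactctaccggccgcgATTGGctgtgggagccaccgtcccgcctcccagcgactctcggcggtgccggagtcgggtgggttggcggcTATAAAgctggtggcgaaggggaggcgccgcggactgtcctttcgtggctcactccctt
SREBF2: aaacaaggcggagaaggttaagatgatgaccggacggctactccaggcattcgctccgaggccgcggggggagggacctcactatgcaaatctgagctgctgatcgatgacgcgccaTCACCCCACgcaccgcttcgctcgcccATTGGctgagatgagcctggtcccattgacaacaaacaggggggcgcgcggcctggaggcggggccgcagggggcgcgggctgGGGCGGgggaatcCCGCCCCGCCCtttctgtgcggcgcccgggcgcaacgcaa
FDPS: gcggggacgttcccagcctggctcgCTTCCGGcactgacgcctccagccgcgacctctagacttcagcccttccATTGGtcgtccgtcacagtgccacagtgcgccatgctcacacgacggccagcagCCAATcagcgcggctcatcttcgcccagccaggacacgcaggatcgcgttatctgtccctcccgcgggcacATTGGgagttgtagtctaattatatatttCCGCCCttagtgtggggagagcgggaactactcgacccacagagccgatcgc
MT2A: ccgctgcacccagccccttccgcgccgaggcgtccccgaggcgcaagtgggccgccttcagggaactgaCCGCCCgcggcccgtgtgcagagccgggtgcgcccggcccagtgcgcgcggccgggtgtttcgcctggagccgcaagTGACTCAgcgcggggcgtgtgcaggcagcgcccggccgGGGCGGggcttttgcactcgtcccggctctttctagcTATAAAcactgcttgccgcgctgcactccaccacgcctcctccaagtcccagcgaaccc

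The HMGCS1 and MT2A stretches each hold TATAAA on the gene strand, its first base 29 bases before the start. Both matches lie outside the called regions, which end 185 and 33 bp before the starts. SREBF2, which encodes the sterol-responsive factor SREBP2, holds TCACCCCAC, a form of the sterol regulatory element, 133 bases before its start and an NF-Y match 106 bases before it. FDPS, the farnesyl diphosphate synthase gene, holds 3 NF-Y matches, at 176, 122 and 51 bases. HMGCS1 holds 2, at 155 and 100 bases, both outside its called region. FAM117B and C14orf93 hold no TATAAA, but both hold GC boxes, the nearest to the start 13 and 36 bases before it. DHRS13 holds none of the motifs searched. Matches are letters found in this window and show nothing of a factor there.

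Starts far outnumbered 3′ ends, a distinction that the choice of regions did not use. Strand was known for 15812 of the 19974 protein-coding genes (79.2%), and with it 169 regions lay at starts only, 26 at 3′ ends only and 8 within reach of both, while 46 could not be told. Of the 195 regions told apart, 169 (86.7%, interval 81.1 to 91.1) lay at a start, while the windows covered 27.8 Mb at starts alone and 28.5 Mb at 3′ ends alone. The share was 86.3% (113 of 131) among regions with a peak of replicate 1, 84.8% (139 of 164) for replicate 2 and 89.1% (155 of 174) for replicate 3, so all 3 libraries gave starts the larger share. It was 87.3% (69 of 79) in regions with peaks of 3 libraries and 86.2% (100 of 116) in those with 2. Regions called in a single library, which the rule left out, gave 94.0% (63 of 67), 90.1% (154 of 171) and 94.4% (168 of 178) in replicates 1, 2 and 3. Counted by genes, 179 of the 15812 (1.13%) had a region at the start and 33 (0.209%) had one at the 3′ end. Without replicate 2 the genes with a region at the start numbered 104, and without replicate 3 they numbered 89.

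Summits, the bases of highest signal in a peak, gathered just upstream of starts. For the 177 regions with a start in reach, the median summit of the libraries lay at a median of -61 bp, with quartiles of -179 and 470 bp (negative values are before the start). The medians in replicates 1, 2 and 3 were -50.5, -22 and -53 bp. The 250 bp before the start held 73 of the 177 summits, against 21 in the 250 bp from the start onward and 11 in the next 250 bp upstream. The summit came within 250 bp of the start in 94 regions (53.1%, interval 45.5 to 60.6) and within 1000 bp in 143 (80.8%). In single libraries the summit was within 250 bp in 53 of 120 (44.2%), 72 of 147 (49.0%) and 83 of 161 (51.6%). The start base itself lay inside 81 regions (45.8%). In 23 regions the summit was over 1000 bp past the start and in 11 it was over 1000 bp before it.

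**Figure D1:**
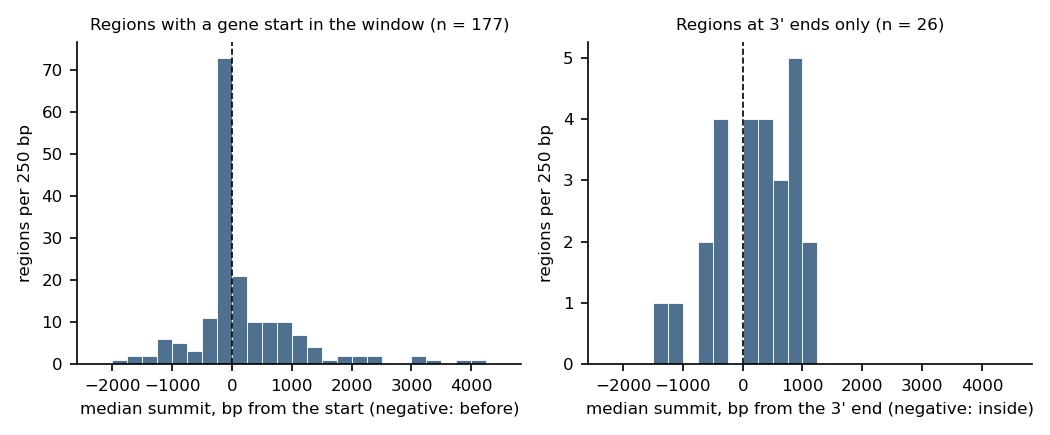
Distance in bp from the region's summit (median over its libraries) to the gene start (177 regions) and to the 3′ end (26 regions at 3′ ends only), as counts of regions per bin. The bar for the 250 bp before the start holds 73 regions, and the bar for the 250 bp before the 3′ end holds 0.

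At 3′ ends the pattern was different in position. The 26 summits lay at a median of 349 bp beyond the end, 18 of 26 (69.2%, interval 48.2 to 85.7) lay past it, and 4 of 26 (15.4%, interval 4.36 to 34.9) lay within 250 bp of it. For starts the share within 250 bp was 53.1% (interval 45.5 to 60.6), with the 8 regions in reach of both kinds of end counted there only. Regions are not replicates, and VMP1 had neighbouring regions among the 26, so the comparison carries no test. Only the region at SERPINA5, which encodes a serpin protease inhibitor, lay within 1000 bp of a start listed for any gene with known strand, that of LOC124903411. Among the 1106 regions away from protein-coding ends, 104 (9.40%) lay that near to a listed start. Neither group could hold a region in reach of a protein-coding start used by the rule, so low counts follow in part from that choice.

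The distance between the summits of the libraries is given as a description. A region forms only where peaks of the libraries overlap, so close summits follow in part from the rule. In the 233 regions no wider than 2000 bp, the summits of the libraries spanned a median of 64 bp, and 100 bp in the 84 of them with peaks of 3 libraries. FAM117B was among the tightest, with summits 241, 239 and 239 bp before the start. BCAN, a brain proteoglycan gene with a region past its 3′ end, had summits 879, 866 and 862 bp from that end. At NFE2L2, the NRF2 gene, they were more spread, at 177, 377 and 114 bp from the start.

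Peaks of all 3 libraries were present in 100 of the 249 gene-end regions (40.2%, interval 34.0 to 46.5) and in 517 of the 1106 regions elsewhere (46.7%, interval 43.8 to 49.7), and these intervals overlap. Regions shared by replicates 2 and 3 alone made up 82 (32.9%, interval 27.1 to 39.1) at gene ends and 262 (23.7%, interval 21.2 to 26.3) elsewhere. Those shared by replicates 1 and 2 alone made up 31 (12.4%, interval 8.62 to 17.2) and 229 (20.7%, interval 18.4 to 23.2). For both of these pairs the intervals do not overlap, but they cover counting error over regions, which are not replicates. The rule also used which libraries held a peak, so these shares are a description without a test.

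The strength of a peak was read as the rank of the authors' fold enrichment within its own list, as a percentile. Median fold at gene ends was 5.36, 5.58 and 5.37 in replicates 1, 2 and 3, and in other reproducible regions 5.24, 5.83 and 5.37. The corresponding median percentiles were 61.8, 59.7 and 59.9 at gene ends and 57.5, 65.5 and 59.9 elsewhere. The difference was 4.33, -5.75 and 0 percentile points, with a mean of -0.473 ± 5.06 (SD, n = 3; exact sign-flip permutation test, two-sided, p = 1). The difference was within the spread between libraries, and the smallest p that 3 libraries allow is 0.25. Its direction turned in other settings: it was 12.4 points in regions with peaks of all 3 libraries, 6.46 with folds of at least 5 and 5.90 with -log10 q of at least 3 (exact sign-flip permutation test, p = 0.25 in each). Start peaks ranked at 59.1, 54.7 and 55.6 and 3′ end peaks at 67.5, 63.7 and 50.6. That difference averaged -4.17 ± 7.96 (SD, n = 3; exact sign-flip permutation test, p = 0.5) and changed sign between libraries. It also turned positive in regions with peaks of 3 libraries, at 8.0 points.

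**Figure D2:**
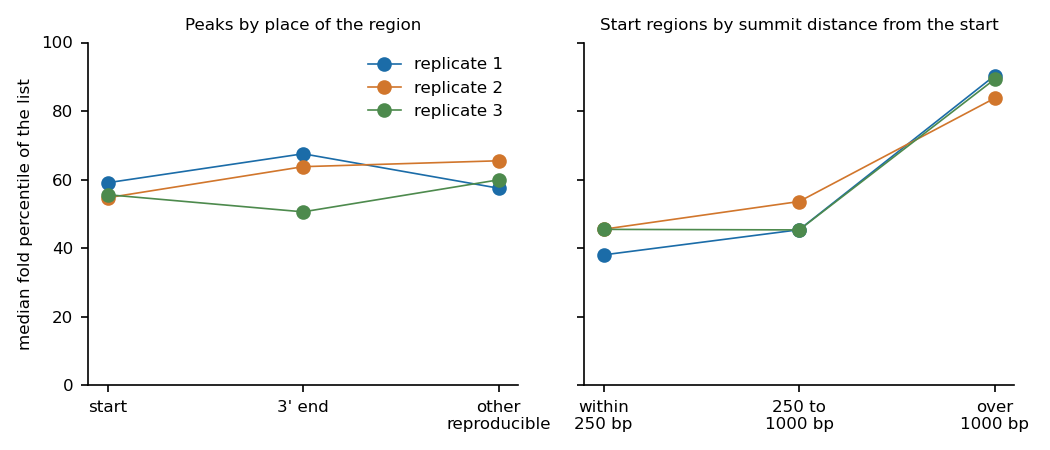
Median fold percentile of peaks within each V5 list (points, 1 per replicate, joined by lines to guide the eye), for starts, 3′ ends and other reproducible regions on the left and by summit distance from the start on the right. The order of starts and 3′ ends changes in replicate 3. Regions with summits over 1000 bp away, at 83.8 to 90.4, met the rule only through their length, except a region at the ID1 3′ end.

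Within start regions, ranks were also read by position. Where the summit was within 250 bp of the start, median percentiles were 38.0, 45.5 and 45.4 in the 3 libraries (94 regions), and at 250 to 1000 bp they were 45.3, 53.6 and 45.3 (49 regions). Where the summit was over 1000 bp away, they were 90.4, 83.8 and 89.3 (34 regions). A far summit could meet the rule only through a region long enough to reach the end. The exception was a region at ID1 with its summit 53 bp past the 3′ end of that gene. A long region is ranked by the strongest of its merged peaks. The far regions had a median width of 1005 bp against 290.5 bp for the near ones. The choice of regions therefore bears on their higher rank, which is given without a test. With peaks of fold 5 or more only, the mean gap over the libraries was 8.33 percentile points, against 44.8 with all peaks. Of the 34 far regions, 1 had its summit within 250 bp of another listed start.

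Among the 100 regions with peaks of 3 libraries, 26 were above percentile 90 in all 3 lists, 8 in 2 lists, 18 in 1 list and 48 in none. Their mean percentile had a median of 72.2, and its SD between libraries had a median of 15.0 points with quartiles of 2.66 and 24.6. Regions with 2 libraries had a median of 41.4.

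The strongest region lay at the start of FAM117B (chr2:202634389-202634969), with folds of 25.2, 26.7 and 30.8 in replicates 1, 2 and 3. C14orf93 (chr14:23008708-23010735) followed, with folds of 24.4, 27.0 and 24.4 and a summit 33 bp before the start. The region next to POLR1B, which encodes the second-largest subunit of RNA polymerase I, had folds of 18.5, 19.7 and 18.1. Its summit was 409 bp inside POLR1B and 706 bp past the 3′ end of TTL, the tubulin tyrosine ligase gene, so the region counted for both ends. DHRS13, a short-chain dehydrogenase gene whose promoter holds none of the motifs searched, had folds of 16.9, 15.7 and 10.9 at 69 bp before the start. The shared region of NEMP1, a nuclear envelope protein gene, and NAB2, a corepressor gene, had folds of 9.23, 16.1 and 11.1. Its summit fell 1 bp from the NEMP1 start. The lowest percentile of these 5 regions in any list was 97.7.

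**Figure D3:**
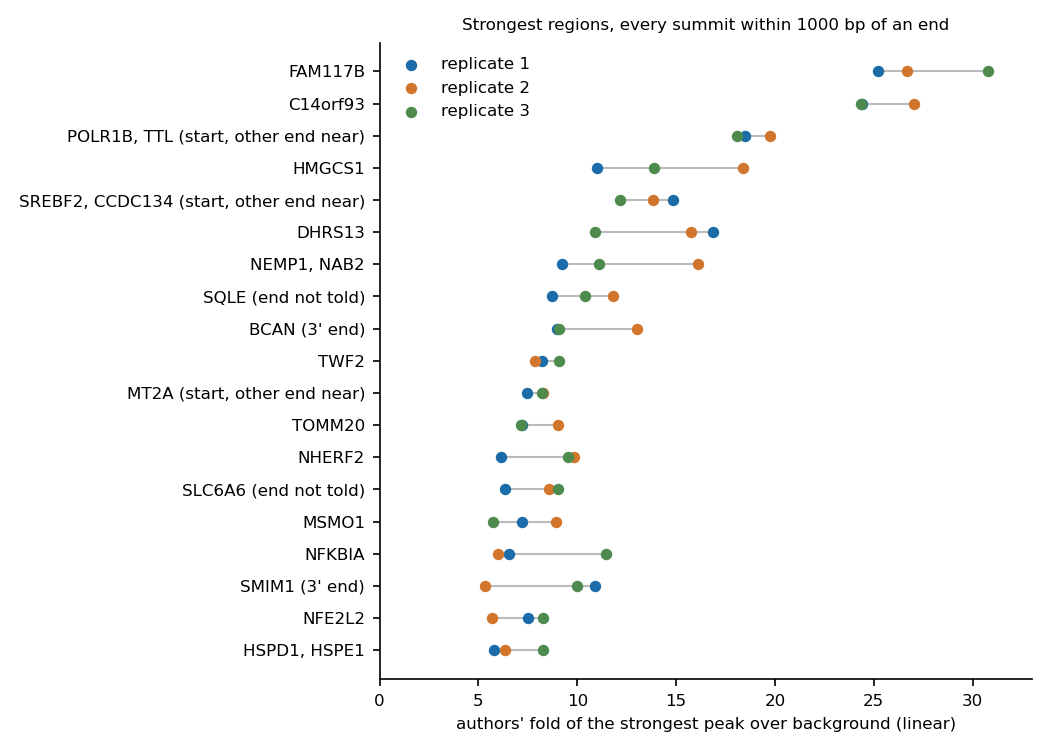
Fold over background as deposited, in each V5 library, for 19 of the 20 strongest regions with peaks of 3 libraries and every summit within 1000 bp of an end. Points are libraries. FAM117B lies between 25.2 and 30.8, and HSPD1 with HSPE1, the last of the 20, between 5.78 and 8.24.

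Other strong regions lay at genes of varied function. TWF2, a twinfilin gene that acts on actin, had folds of 8.23, 7.87 and 9.09, 470 bp inside the gene. TOMM20, an import receptor of the mitochondrial outer membrane, had 7.20, 9.05 and 7.13, at 126 bp before the start. NHERF2, a membrane scaffold gene, had 6.13, 9.84 and 9.54 at 884 bp inside. The libraries gave NHERF2 percentiles of 78.2, 97.2 and 97.6, so replicate 1 stood below the others. SLC6A6, the taurine transporter gene, had 6.33, 8.56 and 9.0 within 68 bp of an end. NFKBIA, the gene of the NF-κB inhibitor IκBα, had 6.53, 6.01 and 11.4, and ranked highest in replicate 3. In all, 69 of the 249 regions had peaks of 3 libraries with every summit within 1000 bp of an end.

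Of 13 gene lists, those of sterol synthesis and of antioxidant genes had a region at an end for the largest shares of their genes, 41.4% and 40.9%, with intervals that nearly coincide. Across all 19974 protein-coding genes, 248 (1.24%) had a region at either end. The lists below were drawn up with earlier results of these data known, so their counts describe these data and are not independent evidence. Which list came first changed with the setting: the antioxidant list led without replicate 1 (31.8% against 27.6%) and without replicate 3 (22.7% against 20.7%), and the Wnt list led with a window of 2000 bp, at 42.9%. In the sterol list, 12 of 29 genes had a region (interval 23.5 to 61.1). At known starts they were 8 of 22 (36.4%), none was at a 3′ end, and 4 could not be told. Their regions had a median mean percentile of 81.2, against 52.6 over all 249. Without replicate 3 the count was 6 of 29, beside 0.666% of all genes, and without replicate 1 it was 8, beside 0.911%.

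The sterol genes with regions ran along the pathway. HMGCS1, cytosolic HMG-CoA synthase, had folds of 11, 18.4 and 13.9 at 292 bp before the start. SQLE, squalene epoxidase, had 8.70, 11.8 and 10.4 at 187 bp from an end not told. All 3 libraries placed both above percentile 90 of their lists. FDPS had 6.21, 6.82 and 6.07 at 107 bp before its start, in a region shared with PKLR, the liver pyruvate kinase gene on the other strand. MSMO1, a methyl oxidase of the later pathway, had 7.20, 8.94 and 5.71, and ranked lowest in replicate 3. SREBF2, the regulator, had 14.8, 13.9 and 12.2, again in all 3 libraries, and its region also lay 801 bp past the 3′ end of CCDC134. MVK (7.57 and 5.56), ACAT2 (4.22 and 7.25), MVD (4.92 and 3.78) and STARD4 (2.94 and 3.77) had peaks in replicates 1 and 3 only. LSS had them in replicates 2 and 3, with folds of 4.92 and 5.65. The sterol genes thus ranged from the strongest to among the weakest regions. No gene of the fatty acid synthesis list had a region, 0 of 13 (interval 0 to 24.7, beside 1.24% of all genes). That interval holds the share of all genes, and with a window of 2000 bp the count was 1 of 13, beside 1.67%.

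**Figure D4:**
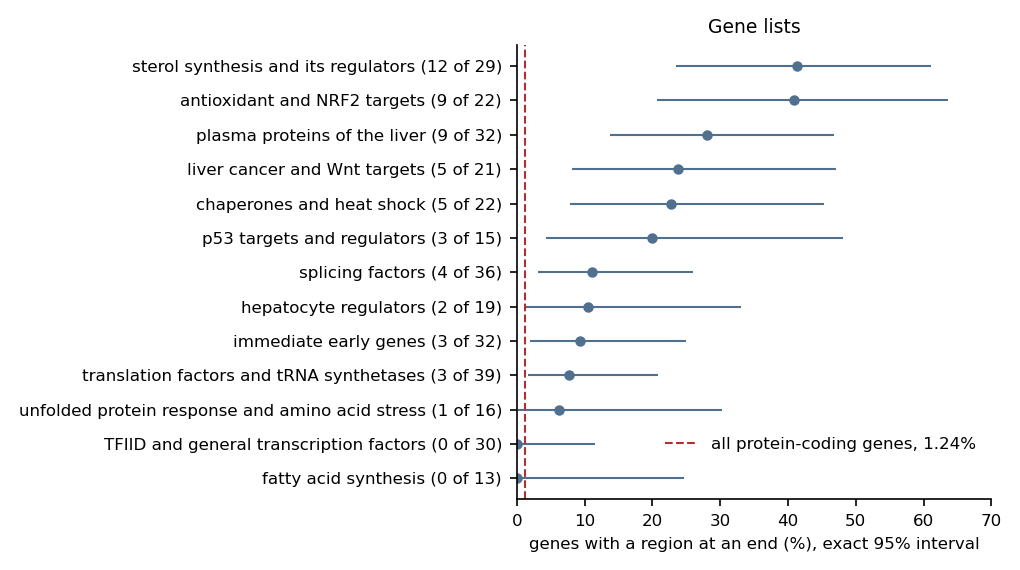
Share of each list's genes with a region at either end, in percent, with exact 95% intervals; the dashed line marks all protein-coding genes at 1.24%. The sterol and antioxidant lists lie highest, at 41.4% and 40.9%. The TFIID and fatty acid lists are at 0, with intervals that hold the share of all genes.

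Antioxidant and NRF2 genes were next, with 9 of 22 (40.9%, interval 20.7 to 63.6), and 7 of the 13 with known strand had a region at the start. UGDH, UDP-glucose dehydrogenase, had folds of 11.4, 12.2 and 9.51 in a region reaching far into the gene, and a second of 4.46, 8.22 and 5.34 at its start. MT2A, the zinc-binding metallothionein, had 7.47, 8.24 and 8.22 at 156 bp before the start. NFE2L2, the list's own regulator, had 7.52, 5.69 and 8.24. AKR1C1, an aldo-keto reductase gene, had 3.78, 5.81 and 5.69, and ranked lowest in replicate 1. FTL, ferritin light chain, had a region at its start and one about its 3′ end, the latter with folds of 4.88, 7.14 and 8.33. NQO1 (4.39 and 4.96), GCLM, FTH1 and PRDX1 were each called in 2 libraries. The median mean percentile of the list was 48.5, close to the 52.6 of all regions, so a large share of these genes had a region but the regions ranked near the middle. Without replicate 3 the count was 5 of 22, beside 0.666% of all genes.

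Plasma protein genes followed with 9 of 32 (28.1%, interval 13.7 to 46.7). AHSG, fetuin A, was the strongest and was called in replicates 2 and 3 with folds of 8.33 and 7.82. APOA2, an apolipoprotein of high-density lipoprotein, had a peak in every library, at 4.16, 8.65 and 6.20, and a weaker second region. AMBP had 4.08, 6.0 and 3.94 and APOB, the main low-density lipoprotein apolipoprotein, had 3.93, 5.03 and 4.09. APOA1 (5.06 and 7.71) and F2, prothrombin (6.35 and 5.34), were called in replicates 2 and 3 only. Of the 9 genes, 3 were called in all 3 libraries, and the count was 3 of 32 without replicate 3 (beside 0.666% of all genes) and 5 without replicate 2 (beside 0.706%). Hepatocyte regulators had 2 of 19 (10.5%): FOXA3, a liver forkhead factor, past its 3′ end at 6.61, 5.83 and 5.28, and NR0B2, the SHP repressor, at 5.46, 7.38 and 4.57.

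Genes of liver cancer and Wnt signalling had 5 of 21 (23.8%, interval 8.22 to 47.2), 9 of 21 with a window of 2000 bp (beside 1.67% of all genes) and 3 of 21 with 250 bp (beside 0.821%). NKD1 and ZNRF3, both negative feedback regulators of Wnt, had folds of 6.0, 6.54 and 6.73 and of 4.88, 7.02 and 9.14. SP5, a Wnt-induced repressor, had 6.03, 5.24 and 6.53. LGR5, an R-spondin receptor, had 5.23, 6.89 and 4.63. CCND1, cyclin D1, was called in replicates 2 and 3 only. Of the 4 called in all libraries, NKD1 varied least in rank and ZNRF3 most.

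The chaperone list had 5 of 22 (22.7%, interval 7.82 to 45.4), led by HSPD1 and HSPE1, the mitochondrial chaperonin pair. HSPA8 (5.34 and 5.91) and HSPA1B (4.16 and 4.46) were called in replicates 2 and 3, and HSP90AB1 at 4.07, 4.96 and 4.98 in all. The count was 3 without replicate 2, beside 0.706% of all genes, and 3 without replicate 3, beside 0.666%. The p53 list had 3 of 15 (20%): MDM2, the p53 ubiquitin ligase (10.9, 8.88 and 7.90), GDF15, a stress cytokine (6.73, 5.48 and 5.46), and PPM1D, a p53-induced phosphatase, in replicates 1 and 2. MDM2 ranked highest of these in all 3 libraries, but its summit lay 3094 bp inside the gene. The p53 count was 2 of 15 when the summit itself had to lie within 1000 bp of an end, beside 1.12% of all genes.

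Splicing factors had 4 of 36 (11.1%, interval 3.11 to 26.1, beside 1.24% of all genes), with a median mean percentile of 96.3. TRA2B had folds of 14.3, 14.8 and 15.8, SRSF3 9.20, 9.23 and 8.84, HNRNPA2B1 8.39, 9.30 and 8.47, and HNRNPC 7.66, 7.34 and 8.53. These are regulators of alternative splicing and RNA packaging. In all 4 the summit lay over 1000 bp inside the gene, from 1182 bp at SRSF3 to 3473 bp at TRA2B. The count was 0 when the summit itself had to lie within 1000 bp of an end, and 8 of 36 (22.2%, beside 1.67% of all genes) with a window of 2000 bp. Of the immediate early genes, 3 of 32 (9.38%) had a region: ERRFI1, IER3 and KLF6. With a window of 2000 bp the count was 5 of 32, beside 1.67% of all genes. The region counted for IER3 held the start of FLOT1 and lay 139 bp from an IER3 end not told. ERRFI1, a feedback inhibitor of EGF receptor, had 12.7, 8.47 and 11.9 in a wide region 4089 bp inside the gene and a weaker one at its start.

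Translation factors had 3 of 39 (7.69%), namely EIF4A2, EEF1A1 and TARS1. With a window of 250 bp the count was 1 of 39, beside 0.821% of all genes. The unfolded protein response list had XBP1 alone, 1 of 16 (6.25%), with folds of 4.47, 4.54 and 7.63. TFIID and the general transcription factors had 0 of 30 (interval 0 to 11.6, beside 1.24% of all genes). That interval holds the share of all genes, so the count of 0 shows no lack of regions.

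Regions wider than 2000 bp numbered 16 of the 249 (6.43%) and 15 of the 1106 elsewhere (1.36%). A wide region reaches a gene end more readily, so the rule itself favours width and no comparison is drawn from these shares. In 15 of the 16 the summit lay over 1000 bp from the nearest end, and C14orf93 was the exception. Median widths over all regions were 331 bp at gene ends and 337.5 bp elsewhere. Of the 16, 12 had a start in reach, and in 9 of these the summit lay after it. The widest was TRA2B at 9849 bp. The next were the shared region of MGME1, a mitochondrial exonuclease gene, and SNX5, a sorting nexin gene, at 7863 bp, UGDH at 7356 bp, ZNFX1, a helicase gene, at 6283 bp and LOC105377015, beside TGFBR2, at 5928 bp. Folds at MGME1 and SNX5 were 13.4, 14.5 and 11.2, and at ZNFX1 8.37, 8.10 and 10.4. All 5 were called in 3 libraries.

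At divergent starts, taken as 2 genes on opposite strands that begin within reach of a single region, overlapping pairs included, lay 24 of the 177 start regions (13.6%). The strongest were MGME1 with SNX5, NEMP1 with NAB2, and HNRNPA2B1 with CBX3, the gene of a heterochromatin protein. The starts of NEMP1 and NAB2 lie 487 bp apart, and those of HNRNPA2B1 and CBX3 lie 697 bp apart. The gap between the MGME1 and SNX5 starts is -204 bp, so these genes overlap at their starts, as do some other pairs counted here. Summits lay 1672 bp from the MGME1 start and 2346 bp from the HNRNPA2B1 start, so these 2 regions met the rule through their width. Regions about HSPD1 and HSPE1, whose divergent starts lie 105 bp apart when the HSPE1-MOB4 readthrough gene marks the plus strand, took 2 more of the first 5. The HSPD1 region with folds of 8.12, 6.95 and 8.21 had its summit 2128 bp inside that gene, and the one with 5.78, 6.34 and 8.24 had it 336 bp inside. The pair therefore carried several neighbouring regions, and these share the target.

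The 3′ end regions had their own leading genes. BCAN was strongest, with folds of 8.97, 13.0 and 9.06 and a summit 866 bp past the end. IRF2BP2, a corepressor gene, had 7.98, 7.87 and 10.2 in a region 4996 bp wide whose summit lay 1458 bp inside the gene. TTLL2, a tubulin-modifying enzyme gene, had 6.78 and 9.89 in replicates 1 and 2 only. SMIM1, the Vel blood group gene, had 10.9, 5.34 and 9.96, with its lowest rank in replicate 2, and the region at GYS1, muscle glycogen synthase, and FTL had 4.88, 7.14 and 8.33. Agreement was close for BCAN and IRF2BP2, whose percentiles differed between libraries by an SD of 1.35 and 3.97 points, but not for SMIM1 with an SD of 26.3. In 11 genes a region reached both ends. For CDKN1B, CKS2, FTL, HSPE1, ID2, IL6ST and IRF2BP2 these were separate regions. ID1 had separate regions and also 2 that each reached both its ends. For H4C12, MIF and MT2A, genes of 387, 841 and 914 bp, 1 region served both.

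Some regions covered small RNA genes. A snoRNA gene lay in 6 of 249 regions (2.41%) and in 3 of the 1106 elsewhere (0.271%). A longer region covers more genes, so these shares also move with width. They were SNORD17 in the region of MGME1 and SNX5, SNORD12, SNORD12B and SNORD12C at ZNFX1, SNORD2 at EIF4A2, SNORA73A at RCC1, and SNORD25 and SNORD26 to SNORD28 in 2 regions at SLC3A2. A miRNA gene lay in 4 of 249 (1.61%) and 2 of 1106 (0.181%). Among these MIR21, a microRNA often raised in cancer, lay in a region at the 3′ end of VMP1 with folds of 4.22, 5.57 and 4.54. Long noncoding RNA genes lay in 46 of 249 regions at gene ends (18.5%) and 214 of 1106 elsewhere (19.3%).

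Promoter composition could be set against all promoters for 157 genes with a region at the start, beside 13792 promoters of 300 bases. GC content had a median of 65.3% against 62.7%, and the CpG observed over expected ratio 0.866 against 0.767. GGGCGG, on either strand, was found in 119 of 157 (75.8%, interval 68.3 to 82.3) against 58.5% of all promoters. CCAAT was in 68 (43.3%, interval 35.4 to 51.4) against 37.1%, TATAAA in 22 (14%, interval 8.99 to 20.4) against 10.03%, and the E-box CACGTG in 20 (12.7%) against 8.95%. The interval lay above the share of all promoters for GGGCGG but held it for CCAAT and TATAAA. TGACGTCA, the CREB and ATF motif, was in 9 (5.73%, interval 2.65 to 10.6) against 2.70%, and CCGGAAG, the ETS motif, in 21 (13.4%) against 14.6%.

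Most of the remaining motifs were rare. AAGATGG, the YY1 motif, was in 8 (5.10%) against 6.69%, TGACTCA, of AP-1, in 4 (2.55%) against 3.65%, and GCGCATGC, of NRF1, in 3 (1.91%) against 4.45%. TGTTTAC, of FOXA, was in 2 (1.27%) against 2.53%. The sterol form TCACCCCAC was in SREBF2 alone (0.637% against 0.442%), TCACGCCAC in none, and CAAAGTCCA, of HNF4A, in 1 against 0.319%. The pair CA across the start was in 62 (39.5%) against 37.1%. TATAA placed 40 to 21 bases before the start on the gene strand, a position chosen after the data were seen, was in 15 (9.55%, interval 5.45 to 15.3) against 5.94%. Motifs can overlap, and a match in this window is a description of the sequence only.

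**Figure D5:**
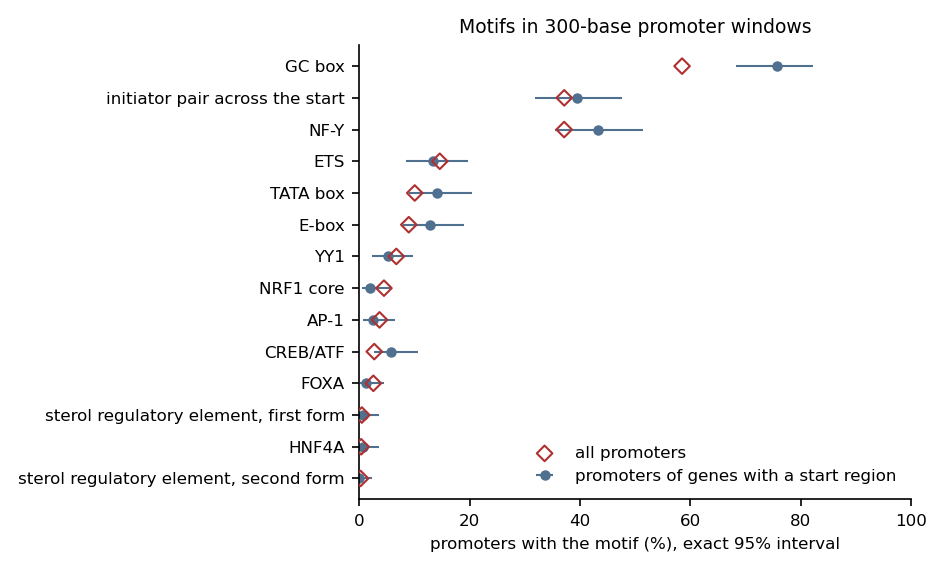
Share of promoters, in percent, holding each motif: 157 genes with a region at the start (with exact 95% intervals) and all 13792 promoters. Motifs were read on either strand, but the initiator pair CA only across the start. The GC box is at 75.8% against 58.5%, and its interval does not reach the share of all promoters.

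The regions were spread over the chromosomes unevenly. Chromosome 2 held 34 of 249 (13.7%) with 6.28% of protein-coding genes, and chromosome 20 held 15 (6.02%) with 2.69%. Neighbouring regions of 1 gene count separately here. No region lay on chromosome X, 0 of 249, which allows a share of up to 1.20%, beside 4.25% of the genes. Of the 1355 reproducible regions, 17 (1.25%) lay on chromosome X, so it was thinly covered away from gene ends too. The number of copies of each chromosome in these cells was not measured here and the controls were not analysed. Its part in these shares was not tested.

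At the limit of 1000 bp, folds ranged from 3.24 to 4.73 in the 3 regions just inside and from 3.86 to 7.87 in the 3 just outside. Inside were ZMYND8 (995 bp from the end, folds of 3.24 and 4.28 in replicates 2 and 3), RPL4 (994 bp, 4.54 and 4.73 in replicates 1 and 2) and PRM1 (991 bp, 4.63 and 4.38 in replicates 2 and 3). Outside were LRMDA (1001 bp; 3.86, 7.87 and 5.10), MLLT6 (1003 bp; 5.29, 4.81 and 5.40) and RNF43 (1004 bp, 5.98 and 5.50 in replicates 2 and 3). Of the 6, only LRMDA and MLLT6 were called in all 3 libraries.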

How the data were processed

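Peak positions are on GRCh38, per the submitters' processing notes. The alignment and peak-calling software, the calling threshold and the control used were not given in the sources used here. Every V5 library had its own deposited list in the narrowPeak layout, so replicates were not pooled. The authors' fold enrichment is a linear ratio of a peak over the caller's background, and the lowest was 1.57, 1.75 and 1.33 in replicates 1, 2 and 3. The deposited -log10 p and -log10 q were taken as given, and the lowest -log10 q was 1.31, 1.31 and 1.33. The deposited score was not used, and the deposited summit offset gave positions. Ranks of fold were taken within a list, as percentiles. Folds of the libraries are printed beside each other as the authors' values, and comparisons between libraries use the ranks, except for the alternative with a minimum fold.

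Gene spans and promoter sequences came from RefSeq tables of GRCh38.p14. Strand was taken from the promoter table by gene identifier. A region at a start overlapped the 1000 bp either side of it, and regions in reach of starts and 3′ ends were counted apart. The summit of a region is the median over its libraries, using the strongest peak of each. Differences in median percentile were computed per library and tested by an exact sign-flip permutation over 3 libraries. The region rules were tested on simulated data. The tools were numpy 2.4.6, scipy 1.17.1, pandas 2.3.3 and matplotlib 3.10.9 under Python 3.11.15.

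The rule for named genes took the 20 strongest regions with peaks of 3 libraries and every summit within 1000 bp of an end, the first 5 at 3′ ends, at divergent starts and by width, up to 6 genes of each list, and 3 regions on each side of the limit. Further genes were picked for naming once values were known. The members, the gene lists and the comparisons were chosen with earlier results of these data known. Alternatives covered windows of 250 and 2000 bp, the summit inside the window, -log10 q of at least 3, fold of at least 5, an overlap of 100 bp, peaks of 3 libraries, ranking by -log10 q and each replicate left out. Those for single-library regions, near and far summits, the GC box, the gene lists and the strongest regions were added after the data were seen. The control libraries were not analysed here, and some items that the naming rule took are not reported.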

Additional observations from a re-analysis of the deposited data

How the results depend on the processing

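No paired analysis was possible because only the V5 group had lists analysed here. The 249 regions became 151 with a 250 bp window, 115 with a fold of at least 5 and 100 with peaks of 3 libraries, and 129 to 180 without 1 replicate. The share of told-apart regions at a start, 86.7%, was 80.5% with a fold of at least 5 and 82.7 to 88.6% without 1 replicate; for single-library regions, 92.5% as reported, it was 88.7% with a fold of at least 5. The median summit distance to the nearest end, 268 bp, was 136.5 bp with a 250 bp window, 746.5 with 2000 bp, 197 with the summit inside the window, 331 with -log10 q of at least 3, 405.5 with a fold of at least 5, 354.5 with 3 libraries and 267 to 359 without 1 replicate. The 179 genes with a region at the start became 116, 71 and 73 under -log10 q of at least 3, fold of at least 5 and 3 libraries, and 89 to 130 without 1 replicate.

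Gene ends minus other regions, -0.473 points, changed sign to 5.90 with -log10 q of at least 3, 6.46 with a fold of at least 5, 1.06 with a 100 bp overlap, 12.4 with 3 libraries and 0.101 when ranked by -log10 q, and ran from -2.19 to 4.64 without 1 replicate. Starts minus 3′ ends, -4.17 points, changed sign to 1.3 with a 2000 bp window, 6.06 with -log10 q of at least 3, 3.43 with a fold of at least 5 and 8.0 with 3 libraries, and ran from -4.16 to 1.76 without 1 replicate. The cause of these shifts was not tested. Gene-list counts changed with the window and with the library left out, and with stricter calls. With peaks of 3 libraries they were 6 of 29 for sterol, 5 of 22 for antioxidant and 3 of 32 for plasma protein genes, beside 0.521% of all genes. With a fold of at least 5 they were 8 of 29, 5 of 22 and 4 of 32, beside 0.581%. The chaperone count was 3 of 22 in both settings. The GC box share stayed within its interval. No sign-flip p fell below 0.25. The 250 bp window kept 15 of the 20 strongest regions, and most other settings could drop none of them by their choice.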
